A study of Rattus norvegicus with 7 samples.

Results

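Glutamate and GABA receptors carry most of the fast excitatory and inhibitory signalling between cortical neurons, and the mRNAs of their subunits were followed here in RNA that co-purified with TRF2-S. TRF2-S is a short, non-telomeric isoform of the telomere protein TRF2 that binds RNA. Members were all array probes whose gene symbol names an AMPA (*Gria*), kainate (*Grik*), NMDA (*Grin*), delta (*Grid*) or metabotropic (*Grm*) glutamate receptor subunit, or a GABA-A or GABA-B receptor subunit. Of 40 probes with such a symbol, 39 encoded a subunit, and the probe of *Grid2ip*, which encodes a protein that binds a delta receptor, was set aside and was not detected on any array. The 39 probes stood for 38 genes, 21 for glutamate and 17 for GABA receptors. A gene counted as detected when its signal exceeded the array's negative controls at a detection p-value under 0.02 on at least 2 arrays. By this rule 13 of the 38 receptor genes were detected, 8 for glutamate and 5 for GABA, against 6592 of the 13337 named genes on the array.

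The RNA came from Sprague-Dawley rat cortical neurons taken at embryonic day 18 and kept 9 days in culture. Complexes were immunoprecipitated (RIP) with a polyclonal antibody to TRF2-S on 2 arrays, or with rabbit IgG as the control on 5 arrays named IgG1, IgG2, IgG3, IgG3_0 and IgG3_1x. All 7 arrays share this culture, and no input RNA was analysed here, so a difference sets one precipitate against the other and not against the mRNA content of the cells. The methods describe independent experiments, but leave unsaid if IgG3, IgG3_0 and IgG3_1x came from separate precipitates, so the p-values measure a spread between arrays that may be technical.

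Each array detected between 31.5% and 37.0% of its 22523 probes. The 3 arrays named IgG3 stood apart, with a mean signal of 298 to 608 per probe against 155 to 216 on the other arrays. Over the 9187 probes tested, r was 0.899 to 0.934 between them and the pair IgG1 and IgG2, and 0.977 to 0.989 between that pair and the TRF2-S arrays. Each result is therefore given against all 5 IgG arrays and against IgG1 and IgG2 alone. The comparisons share the TRF2-S arrays and IgG1 and IgG2, so they are not independent of each other. Markers of neurons were detected for 9 of 9 genes on the array, of astrocytes for 4 of 5, of the oligodendrocyte lineage for 4 of 6, of microglia for 1 of 4, of endothelial cells for 1 of 2 and of fibroblasts for 2 of 5, so the precipitates also held RNA typical of glia. In such bulk RNA, fewer cells of a type and less RNA per cell cannot be told apart.

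AMPA receptors carry the bulk of fast excitatory current, kainate receptors act on both sides of the synapse, and NMDA receptors admit calcium once a neuron is depolarized. Metabotropic glutamate receptors signal through G proteins. GABA-A receptors are chloride channels built from several subunits, and GABA-B receptors are G-protein-coupled dimers of one GABBR1 and one GABBR2 protein. Many such mRNAs travel along dendrites and axons bound to proteins, and G-rich RNA was the type of sequence used in the study's pulldown assays with TRF2-S.

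For this reason 30 bases from the start of transcription of 4 receptor genes are shown for base composition, 5′ to 3′ in DNA letters, with runs of 4 or more G in capitals. They begin at the start site that the RefSeq promoter table uses (build GRCr8, minus strand in each case), and other starts of the same gene may be in use. It is the gene start of the RefSeq gene table for *Grin1* and *Gabbr2*, and differs from it for *Grik5* and *Gabra5*. *Grin1* (chr3:28528725-28528754), *Gabbr2* (chr5:66083666-66083695) and *Grik5* (chr1:89794880-89794909) had the largest differences among receptor genes against all 5 IgG arrays, and *Gabra5* (chr1:117516577-117516606) had values on the TRF2-S arrays within 0.1 log2 units of IgG1 and IgG2.
Grin1: cgcgcactcgactcagcgtcaggaagcggg
Gabbr2: ggccgttctgagcgagcagaagccggagcc
Grik5: tctctcctccattttctcctttccccttcc
Gabra5: cagccggccggctcaGGGGGctaaggaggt
G made up 36.67% of these bases in *Grin1*, 40% in *Gabbr2*, 46.67% in *Gabra5* and 0% in *Grik5*, whose start is rich in pyrimidines. The table held 9 of the 13 detected genes, and *Gria2*, *Gria3*, *Grin2b* and *Grm2* were not among them. Over these 9 genes the median share of G was 33.33%, against 26.67% over all 33469 genes in the table. A run of GGGG on the transcribed strand was present in 3 of 9 (*Gabbr1*, *Gabra5* and *Gabrd*), or 33.33%, against 12.38% of all genes, and CCCC, the same motif on the opposite strand, in 3 of 9 against 9.702%. The start used for *Gabbr1* also differs from that of the RefSeq gene table. Among the receptor genes not detected, *Gabrb2*, *Grin2d* and *Grm7* had a run of GGGG too, and the others in the table did not. The window is short, and these shares describe letters only. The paper places the TRF2-S binding sites of *Rab3a* and *Aplp1* mainly in their coding regions, which this window was not chosen to cover.

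Detection differed between the receptor families. Both GABA-B genes were detected, as were 2 of 3 AMPA genes (*Gria2* and *Gria3*, not *Gria4*), 3 of 5 kainate genes (*Grik1*, *Grik2* and *Grik5*, not *Grik3* or *Grik4*) and 2 of 6 NMDA genes (*Grin1* and *Grin2b*, not *Grin2a*, *Grin2c*, *Grin2d* or *Grin3b*). Of the 6 metabotropic genes *Grm2* was detected and *Grm4* to *Grm8* were not, and the delta receptor gene *Grid1* was not. Of the 15 GABA-A genes, *Gabra5*, *Gabrb1* and *Gabrd* were detected. The other GABA-A genes were *Gabra3*, *Gabra4*, *Gabra6*, *Gabrb2*, *Gabre*, *Gabrg1*, *Gabrg3*, *Gabrp*, *Gabrq* and *Gabrr1* to *Gabrr3*. GABA-A genes lie in clusters in the genome, and neighbours were not always detected alike: *Gabra5* was detected and its neighbour *Gabrg3* was not, and *Gabrb1* was detected and its neighbour *Gabra4* was not.

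Of the 38 genes, 7 were detected on every array (*Gria2*, *Grik1*, *Grik2*, *Grin1*, *Gabra5*, *Gabrb1* and *Gabbr2*) and 23 on none. *Grin2b* and *Grm2* lay just inside the limit, each detected on 2 arrays, IgG3 and IgG3_1x. *Gabrg1*, detected on IgG2, and *Gabrp*, detected on IgG3_1x, lay just outside it with 1 array each. *Grin2b* and *Grm2* thus entered only through IgG arrays, and neither was above background in the TRF2-S RIP. *Grik5* had a further probe that was at background on all arrays and was not used.

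No receptor mRNA passed an adjusted p of 0.05 (limma) in either direction, with either set of IgG arrays. Against all 5 IgG arrays this set 0 of 13 genes beside 0.0327% of tested probes called higher and 0% called lower. With IgG1 and IgG2 as the control it set 0 of 13 beside 0.142% called higher and 0.0109% called lower. At an unadjusted p under 0.05, 0 of 13 receptor genes were higher and *Grin1* and *Gabbr2* were lower against all 5 IgG arrays, where 6.06% of all probes were higher and 6.06% lower. In the smaller comparison, with IgG1 and IgG2, 0 were higher and *Grin1* alone was lower, beside 6.51% of all probes higher and 6.02% lower.

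**Figure D1:**
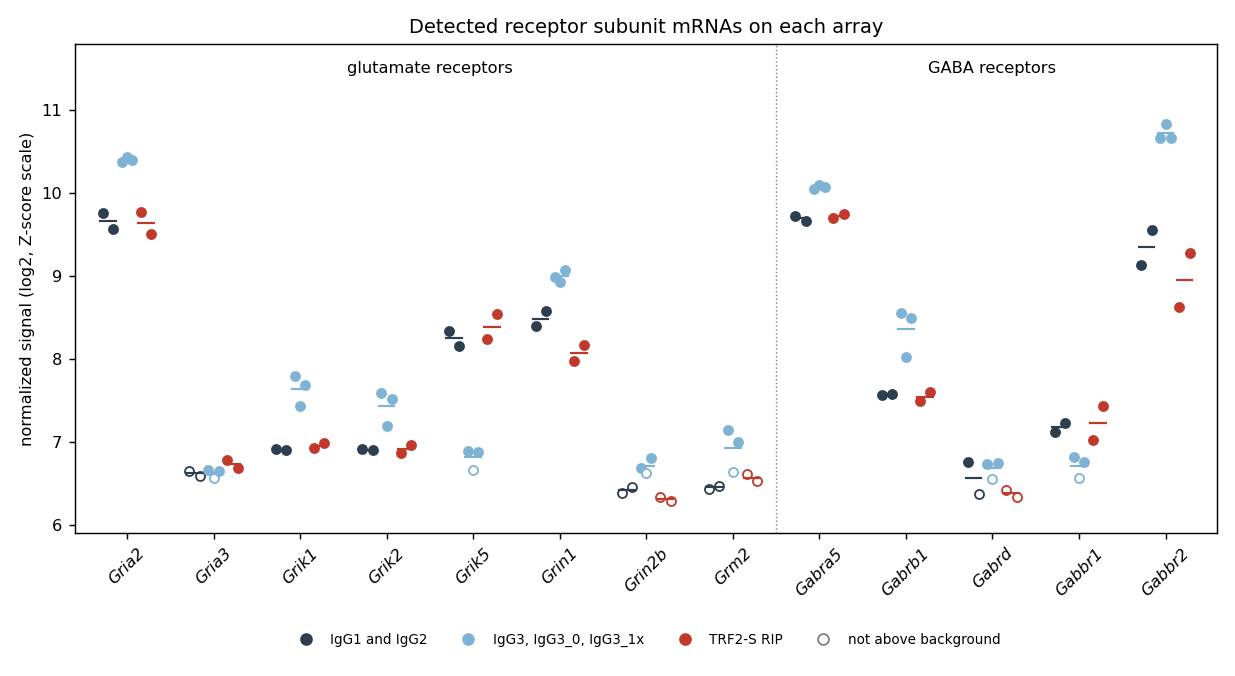
Normalized signal (log2, Z-score scale, vertical axis) of the 13 detected receptor genes on each of 7 arrays, with a bar at the mean of each set of arrays and open circles where the probe was not above background. *Grin1* lies lower on both TRF2-S arrays (7.97 and 8.17) than on every IgG array, *Grik5* lies lower on the arrays named IgG3 (6.66 to 6.89) than on all others, and values should be compared within a gene only.

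*Grin1* encodes GluN1, the subunit that every NMDA receptor contains, and was the receptor mRNA with the smallest p-value in both comparisons. Its normalized log2 signal was 7.97 and 8.17 in the TRF2-S RIP, 8.40 and 8.58 on IgG1 and IgG2, and 8.99, 8.93 and 9.07 on IgG3, IgG3_0 and IgG3_1x in this order, which is kept below. Both TRF2-S arrays lay below every IgG array, and the order of the groups was the same with or without the arrays named IgG3. The difference, TRF2-S minus IgG, was −0.72 ± 0.20 log2 units (SE) against all 5 IgG arrays, with a 95% confidence interval of −1.20 to −0.25 and an adjusted p of 0.41. With IgG1 and IgG2 alone it was −0.42 ± 0.12, with an interval of −0.71 to −0.12 and an adjusted p of 0.25. Each interval excludes 0 on its own, and neither result passed the adjustment over all probes. In signal units as deposited, *Grin1* read 165.2 and 235.2 in the TRF2-S RIP against 214.0 and 289.7 for IgG1 and IgG2, so these groups overlapped before the arrays were scaled. With arrays of the same number as blocks, *Grin1* passed the threshold, at −0.42 and an adjusted p of 0.034 among arrays 1 and 2, but the labels do not say that these numbers pair arrays. That setting called 338 of the 9187 tested probes higher and 310 lower, where the main fit against IgG1 and IgG2 called 13 and 1.

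The other detected NMDA subunit, *Grin2b*, encodes GluN2B, the glutamate-binding subunit that prevails in the immature cortex. It read 6.33 and 6.29 in the TRF2-S RIP, and 6.38 and 6.45 on IgG1 and IgG2, none of them above background. The arrays named IgG3 read 6.69, 6.62 and 6.80, and IgG3 and IgG3_1x detected it. Although both TRF2-S values lay below every IgG value, no fold is given, since the bound against background was under 1.

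*Gabbr2* encodes the GABA-B subunit that couples to G proteins, and showed the largest difference of any receptor gene against all 5 IgG arrays. It read 8.63 and 9.28 in the TRF2-S RIP, 9.13 and 9.56 on IgG1 and IgG2, and 10.67, 10.84 and 10.66 on the arrays named IgG3. The second TRF2-S array lay between IgG1 and IgG2, and the arrays named IgG3 lay above all others. The difference was −1.22 ± 0.50 (interval −2.39 to −0.05, adjusted p 0.41) with all 5 IgG arrays and −0.39 ± 0.23 (interval −0.94 to 0.16, adjusted p 0.57) with IgG1 and IgG2. The arrays named IgG3 exceeded IgG1 and IgG2 by 1.38 log2 units on the normalized scale and by 8.67 times in signal as deposited, beside an SD of 0.30 log2 units between IgG1 and IgG2 and of 0.46 between the TRF2-S arrays. Its partner *Gabbr1*, whose protein binds GABA, read 7.02 and 7.44 in the TRF2-S RIP, 7.12 and 7.23 on IgG1 and IgG2 and 6.56 to 6.81 on the arrays named IgG3. IgG3_0 did not detect it, and in signal as deposited the arrays named IgG3 read 1.21 times IgG1 and IgG2. *Gabbr1* differed by 0.34 ± 0.21 (interval −0.16 to 0.83) and 0.06 ± 0.15 (interval −0.30 to 0.42). None of these differences passed the adjusted threshold, and the sign of *Gabbr1* turned without TRF2-S array 2 (−0.15 against IgG1 and IgG2) and with no normalization (−0.07 against all 5 IgG arrays).

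*Grik5*, the kainate subunit GluK5, ran the other way from *Gabbr2* across the IgG arrays. It read 8.24 and 8.54 in the TRF2-S RIP, 8.34 and 8.16 on IgG1 and IgG2, and 6.89, 6.66 and 6.88 on the arrays named IgG3. The arrays named IgG3 were the low ones, and IgG3_0 did not detect it. Against all 5 IgG arrays the difference was 1.00 ± 0.50 (interval −0.17 to 2.17, adjusted p 0.41), the highest of the receptor genes. Set against IgG1 and IgG2 alone it was 0.14 ± 0.14 (interval −0.19 to 0.47, adjusted p 0.78), and IgG1 lay between the TRF2-S arrays. *Grik5* was the gene that depended most on the choice of IgG control in this direction. On the arrays named IgG3 it lay 1.44 log2 units below IgG1 and IgG2 after normalization, and at 0.69 times their signal as deposited.

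The remaining kainate and AMPA mRNAs followed IgG1 and IgG2 closely. *Grik1* (GluK1) read 6.93 and 6.98 in the TRF2-S RIP, 6.92 and 6.90 on IgG1 and IgG2, and 7.80, 7.43 and 7.68 on the arrays named IgG3. Its difference was 0.05 ± 0.10 against IgG1 and IgG2 (interval −0.20 to 0.29) and −0.39 ± 0.27 against all 5. *Grik2* (GluK2) gave 0.01 ± 0.11 (interval −0.24 to 0.26) and −0.31 ± 0.22. *Gria2* encodes GluA2, the subunit whose edited form keeps AMPA receptors from passing calcium. It read 9.77 and 9.51 in the TRF2-S RIP, 9.76 and 9.56 on IgG1 and IgG2, and 10.38, 10.43 and 10.40 on the arrays named IgG3. The difference was −0.02 ± 0.13 (interval −0.34 to 0.30) against IgG1 and IgG2 and −0.47 ± 0.27 (interval −1.11 to 0.17) against all 5 IgG arrays. For *Gria2*, *Grik1* and *Grik2* the TRF2-S values thus lay near IgG1 and IgG2 and below the arrays named IgG3.

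*Gria3* (GluA3) and *Grm2* (mGlu2, a receptor that dampens transmitter release) were dim. *Gria3* was above background on both TRF2-S arrays, at 6.79 and 6.68, and on IgG3 and IgG3_1x, at 6.66 and 6.64, and not on IgG1, IgG2 or IgG3_0, at 6.65, 6.59 and 6.56. Both TRF2-S arrays lay above every IgG array, by 0.11 ± 0.10 (interval −0.12 to 0.34, adjusted p 0.51) against all 5. Relative to IgG1 and IgG2, where it was not above background, the bound for *Gria3* was 1.04-fold (adjusted p 0.76). The interval of that difference, −0.14 to 0.37 log2 units, includes 0, and the bound itself carries no sampling error. For such a bound, each array of the dimmer group counts with the probe's value or with the lowest detected signal, whichever is higher. *Grm2* read 6.61 and 6.53 in the TRF2-S RIP, 6.43 and 6.47 on IgG1 and IgG2, and 7.14, 6.63 and 7.00 on the arrays named IgG3. It entered the test only through IgG3 and IgG3_1x, where it was high, so no direction is drawn from it (adjusted p 0.64 against all 5 IgG arrays) and no fold is given.

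Among the GABA-A subunits, *Gabra5*, which forms largely extrasynaptic receptors, read 9.70 and 9.75 in the TRF2-S RIP, 9.73 and 9.67 on IgG1 and IgG2 and 10.05 to 10.09 on the arrays named IgG3. *Gabra5* differed by 0.03 ± 0.11 (interval −0.22 to 0.28) against IgG1 and IgG2 and by −0.20 ± 0.16 against all 5. *Gabrb1* read 7.49 and 7.60 in the TRF2-S RIP, 7.56 and 7.58 on IgG1 and IgG2, and 8.56, 8.02 and 8.49 on the arrays named IgG3. The differences of this beta subunit were −0.03 ± 0.11 (interval −0.28 to 0.22) and −0.50 ± 0.31 (interval −1.22 to 0.22). *Gabrd*, the delta subunit of receptors that carry tonic current, read 6.42 and 6.34 on the TRF2-S arrays, neither above background. It read 6.76 and 6.37 on IgG1 and IgG2, and 6.73, 6.56 and 6.75 on the arrays named IgG3, with detection on IgG1, IgG3 and IgG3_1x, and its bound was under 1 in both comparisons. No GABA receptor gene, of 5, had both TRF2-S arrays above, or both below, every IgG array of a comparison. Of all tested probes, 10.3% lay above and 11.6% below all 5 IgG arrays, and 22.5% above and 19.4% below IgG1 and IgG2.

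Across the 13 genes, both TRF2-S arrays lay above all 5 IgG arrays for *Gria3* alone, beside 10.3% of all tested probes, and below them for *Grin1* and *Grin2b*, beside 11.6%. With IgG1 and IgG2 alone they lay above for *Gria3*, *Grik1* and *Grm2*, beside 22.5% of all probes, and below for *Grin1* and *Grin2b*, beside 19.4%. All of these genes encode glutamate receptors, as do 8 of the 13 detected genes. With 13 genes, counts of 1 to 3 lie close to these background shares. *Grin2b* and *Grm2* entered the test only through IgG3 and IgG3_1x, and no TRF2-S array, nor IgG1 or IgG2, detected them. No direction is therefore drawn from their place in these counts.

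**Figure D2:**
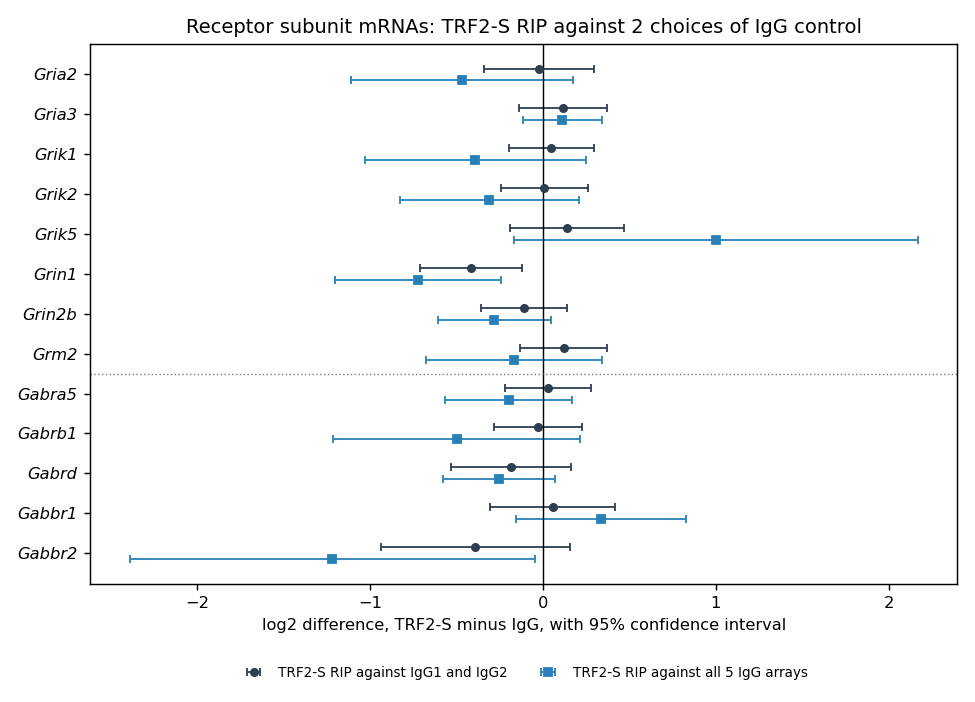
Log2 difference, TRF2-S minus IgG, with its 95% confidence interval (horizontal axis) for each detected receptor gene, against IgG1 and IgG2 (circles) and against all 5 IgG arrays (squares), glutamate receptors above the dotted line and GABA receptors below it. The interval of *Grin1* lies below 0 in both comparisons, and that of *Gabbr2* (−2.39 to −0.05) only against all 5 IgG arrays.

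Excitatory and inhibitory receptor mRNAs were next set side by side as classes. With IgG1 and IgG2 as the control, the median log2 difference was 0.03 over the 8 glutamate receptor genes (5 above and 3 below 0) and −0.03 over the 5 GABA receptor genes (2 above and 3 below 0), beside 0.0048 over all tested probes. Against all 5 IgG arrays the medians were −0.29 (2 above, 6 below) and −0.25 (1 above, 4 below), beside −0.07 over all tested probes, of which 58.7% lay below 0. These counts and medians include *Gabrd*, *Grin2b* and *Grm2*, which entered only through IgG arrays, and the GABA median of −0.25 is the value of *Gabrd*, so they are no measure of a class below its control. Over the genes detected on every array compared, the medians were −0.43 (4 glutamate genes) and −0.50 (3 GABA genes) against all 5 IgG arrays. The 5913 probes that passed the same filter had a median of −0.15. Against IgG1 and IgG2 the class medians were 0.0091 (5 genes) and 0.00011 (4 genes), beside 0.0038 over 6806 probes. Over all 13 genes, the glutamate minus the GABA median was 0.06 against IgG1 and IgG2 and −0.04 against all 5, so the sign of their difference turned with the choice of IgG arrays, and each was within 0.1 log2 units of 0. No test was run on these medians, since the genes of a class are not replicates. With arrays scaled by their median alone, the glutamate class exceeded the GABA class by 0.44 against all 5 IgG arrays.

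By array, minus the mean of IgG1 and IgG2, the glutamate receptor median was 0.59 on IgG3, 0.25 on IgG3_0 and 0.57 on IgG3_1x, and the GABA receptor median was 0.36, 0.40 and 0.38. Over all tested probes the same arrays read 0.16, 0.014 and 0.14. On the TRF2-S arrays the glutamate median was 0.0045 and 0.061, and the GABA median was −0.14 and 0.026. Both class medians were thus higher on each array named IgG3 than on IgG1 and IgG2, and the TRF2-S arrays were close to IgG1 and IgG2. They include *Grin2b*, *Grm2* and *Gabrd*, which entered only through IgG arrays, IgG3 and IgG3_1x among them. This selection favoured high values on those arrays. Averaged over the arrays named IgG3, *Grik5* (−1.44) and *Gabbr1* (−0.46) lay below IgG1 and IgG2 on the normalized scale, and the other detected receptor genes did not. In signal as deposited the ratio to IgG1 and IgG2 was 0.69 for *Grik5* and 1.21 for *Gabbr1*, so *Gabbr1* was not lower there.

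**Figure D3:**
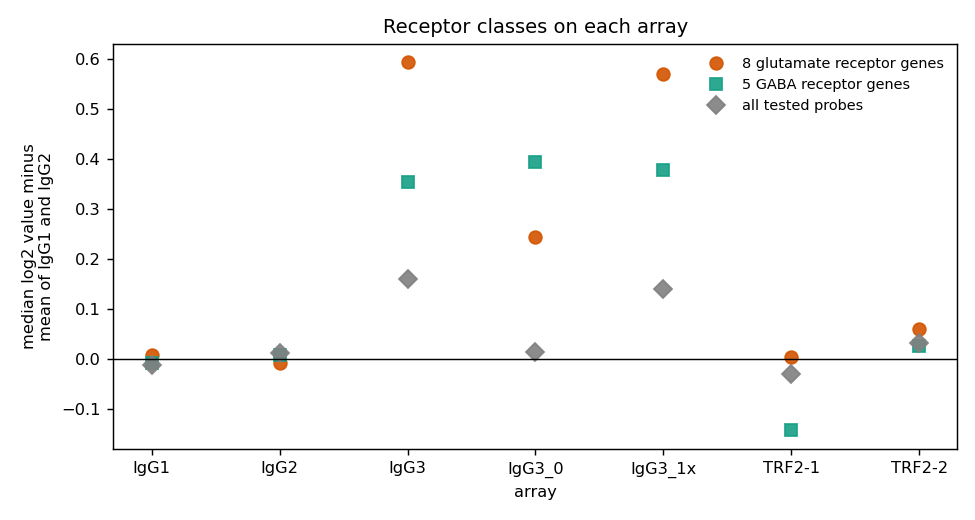
Median over genes of the log2 value minus the mean of IgG1 and IgG2 (vertical axis) on each array, for the 8 glutamate receptor genes (circles), the 5 GABA receptor genes (squares) and all tested probes (diamonds). Both receptor classes read 0.25 to 0.59 on the 3 arrays named IgG3 and −0.14 to 0.061 on the TRF2-S arrays. The medians include *Grin2b*, *Grm2* and *Gabrd*, which entered only through IgG arrays.

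Receptor subunits work with partner proteins, whose mRNAs were described from fixed lists. Auxiliary subunits of glutamate receptors set their gating and surface delivery. They were listed together with other associated proteins, such as those of *Nptxr* and *Grina*, and 8 of the 14 listed genes on the array were tested. Of these, 7 lay above 0 in each comparison, with a median of 0.35 against all 5 IgG arrays and of 0.26 against the pair IgG1 and IgG2. Of all tested probes, 58.7% and 48.6% lay below 0. At an unadjusted p under 0.05 there were 5 and 4 higher, beside 6.06% and 6.51% of all probes, and 0 lower, and none passed the adjusted threshold. *Cacng7*, 1 of those 5 and of the 7 above 0, was above background only on the TRF2-S arrays and so entered the test through them. *Cnih2*, a cornichon that escorts AMPA receptors out of the endoplasmic reticulum, read 11.44 and 11.33 in the TRF2-S RIP and 10.98, 10.27, 9.58, 9.37 and 9.54 on IgG1 to IgG3_1x. Both TRF2-S values exceeded every IgG value, by 1.44 ± 0.42 against all 5 (interval 0.45 to 2.42, adjusted p 0.41) and by 0.76 ± 0.22 against IgG1 and IgG2 (interval 0.25 to 1.27, adjusted p 0.24).

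*Cacng4*, a transmembrane AMPA receptor regulatory protein, read 7.74 and 7.52 in the TRF2-S RIP, 7.11 and 6.93 on IgG1 and IgG2, and 6.31, 6.44 and 6.31 on the arrays named IgG3, which did not detect it. The TRF2-S arrays were again the highest, by 0.61 ± 0.13 (interval 0.31 to 0.91, adjusted p 0.15) against IgG1 and IgG2. Set against all 5 IgG arrays, of which 2 detected it, the difference was 1.01 ± 0.25 (interval 0.43 to 1.59, adjusted p 0.41) and rests in part on values at background. *Nptxr*, a neuronal pentraxin receptor that gathers AMPA receptors at synapses, differed by 0.32 ± 0.10 and 0.29 ± 0.11 (adjusted p 0.41 and 0.35). *Cacng2*, which encodes stargazin, was the member below 0, at −0.05 ± 0.14 and −0.22 ± 0.11 (adjusted p 0.83 and 0.49). The AMPA subunit *Gria2* itself differed by −0.02 from IgG1 and IgG2, below *Cnih2*, *Cacng4* and *Nptxr* and above *Cacng2*. The difference between partners and channel subunits was not tested.

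**Figure D4:**
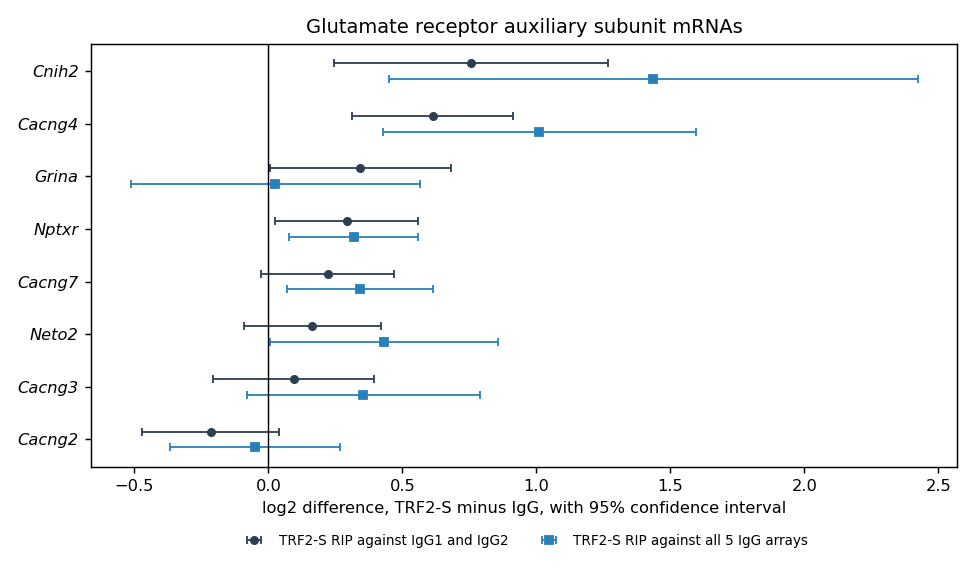
Log2 difference, TRF2-S minus IgG, with its 95% confidence interval (horizontal axis) for the 8 tested mRNAs of glutamate receptor auxiliary subunits and associated proteins, against IgG1 and IgG2 (circles) and against all 5 IgG arrays (squares). The values of 7 genes lie above 0 in each comparison, and *Cacng2* lies below it.

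Scaffold proteins of the excitatory postsynapse were evenly split, with 7 of 14 tested genes above and 7 below 0 in each comparison and medians of 0.0050 and −0.03. *Pick1*, whose protein binds AMPA receptors as they are internalized, read 7.66 and 7.74 in the TRF2-S RIP and 8.20, 8.66, 8.36, 8.12 and 8.37 on IgG1 to IgG3_1x. Both TRF2-S values of *Pick1* lay below every IgG value, by −0.64 ± 0.16 (adjusted p 0.41) and −0.73 ± 0.16 (adjusted p 0.16). *Camk2b*, a subunit of the calcium-dependent kinase CaMKII, differed by 0.02 ± 0.31 against all 5 IgG arrays and by −0.51 ± 0.12 against IgG1 and IgG2 (adjusted p 0.98 and 0.19). *Dlgap3* was above background only on the TRF2-S arrays, through which alone it entered the test, with bounds of at least 1.18-fold and 1.14-fold (adjusted p 0.41 and 0.40) that this selection favoured, and *Grip2* differed by −0.30 ± 0.15 and −0.24 ± 0.15.

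On the inhibitory side, 12 of 14 genes for GABA receptor scaffolds and trafficking were tested, with 5 above and 7 below 0 in each comparison and medians of −0.20 and −0.06. *Trak1*, a kinesin adaptor that also takes part in GABA-A receptor traffic, read 9.33 and 9.59 in the TRF2-S RIP, 10.06 and 9.91 on IgG1 and IgG2, and 10.96, 11.25 and 11.01 on the arrays named IgG3. *Trak1* was lowest on the TRF2-S arrays, by −1.18 ± 0.39 (adjusted p 0.41) and −0.53 ± 0.13 (adjusted p 0.19). *Iqsec3*, a gephyrin partner, differed by −0.30 ± 0.12 and −0.38 ± 0.12 (adjusted p 0.41 and 0.26), and *Nlgn2*, the neuroligin of inhibitory synapses, by 0.35 ± 0.14 and 0.18 ± 0.10 (adjusted p 0.41 and 0.55). At an unadjusted p under 0.05, *Trak1* and *Iqsec3* were lower in each comparison, beside 6.06% and 6.02% of all probes, and *Nlgn2* was higher against all 5 IgG arrays, beside 6.06%. The arrays named IgG3 did not detect *Nlgn2* (6.44, 6.64 and 6.44), so that difference rests in part on values at background. Against IgG1 and IgG2, which detected it, its unadjusted p was 0.12 (limma).

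For the synthesis and transport of glutamate and GABA, 10 of 14 genes were tested, with 3 above and 7 below 0 against all 5 IgG arrays (median −0.14) and 6 above and 4 below against IgG1 and IgG2 (median 0.05). *Slc17a7*, the vesicular glutamate transporter VGLUT1, was above background only on the TRF2-S arrays, at 6.81 and 6.86, through which alone it entered the test. Its bounds, favoured by this selection, were at least 1.15-fold against all 5 IgG arrays and 1.11-fold against IgG1 and IgG2 (adjusted p 0.41 and 0.27). The counts also include *Slc1a2*, which was above background on IgG arrays only. *Slc1a3*, the astrocytic glutamate transporter GLAST, differed by −0.29 ± 0.11 and −0.32 ± 0.12 (adjusted p 0.41 and 0.32). *Slc38a2*, which carries glutamine into neurons, gave −0.75 ± 0.38 and −0.13 ± 0.12, and *Slc17a6*, the transporter VGLUT2, gave −0.26 ± 0.27 and 0.15 ± 0.11.

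Subunits of other ligand-gated channels, the nicotinic, glycine, serotonin and ATP receptors, served as channels outside both classes. Of 14 tested, 3 lay above and 11 below 0 against all 5 IgG arrays (median −0.13), beside 58.7% of all tested probes below 0. Against IgG1 and IgG2, 4 lay above and 10 below (median −0.03), beside 48.6% of all tested probes below 0. With either control, 0 had an unadjusted p under 0.05 in either direction. *Chrna4*, a nicotinic subunit detected on 1 of the 2 TRF2-S arrays, gave −0.42 and −0.17. *Htr3a*, *P2rx2* and *Chrnb1*, the others with the smallest p-values, were above background on IgG arrays only, and no difference is given for them. The same held for *Chrne*, *Chrna3*, *Chrnb4*, *P2rx6* and *Chrnd*. All of these genes entered only through IgG arrays and are in the counts and medians, so no direction is drawn from this list.

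Markers of other cells moved with the comparison in part. On the same per-array scale, the 4 detected astrocyte markers (*Gfap*, *Slc1a3*, *S100b* and *Aldoc*) had a median of −0.45 and −0.17 in the TRF2-S RIP and of −0.18 to −0.13 on the arrays named IgG3, and *Aqp4* was not detected. The median of the 9 neuron markers was 0.08 and 0.23 in the TRF2-S RIP and −0.12 to −0.03 on the arrays named IgG3. *Slc17a7*, counted among these 9, entered the test only through the TRF2-S arrays, which favours them in this median and in the counts below. In the comparison with IgG1 and IgG2, 4 of 4 astrocyte markers lay below 0 (median −0.29) and 6 of 9 neuron markers above 0 (median 0.07). Below 0 there were also 6 of the 13 receptor genes and 48.6% of all tested probes. Against all 5 IgG arrays, 3 of 4 astrocyte markers lay below 0 (median −0.18), beside 58.7% of all tested probes. There, 5 of 9 neuron markers lay above 0 (median 0.09). The part of these markers in the receptor values was not tested.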

How the data were processed

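RNA from TRF2-S and IgG immunoprecipitates was hybridized to single-colour Illumina Ref-12 rat arrays, 2 for TRF2-S and 5 for IgG. The authors deposited linear, unnormalized signal intensities, a detection p-value against negative control beads, and a score that matched per-array Z-scores of log intensities to within 5e-10. The median deposited score per array was −0.474 to −0.378. Its direction, centring and scale are thus known, and its log base cancels. The submitters' processing notes name GenomeStudio 2011.1, and the genome build is not given in the sources used here. The median intensity was 73.1 to 113.4 and the lowest detected intensity 81.5 to 130.1, and the number of arrays limits the precision.

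Here log2 intensities were Z-score transformed per array, as in the methods, and returned to log2 units with a shared mean (6.98) and SD (1.21), so differences are not background-subtracted and are understated for dim probes. The 9187 probes detected on at least 2 arrays entered limma 3.58.1 (R 4.3.3, lmFit, eBayes, two-sided, Benjamini-Hochberg over all of them, threshold 0.05), after a test on simulated data. Of 22523 probes, 13793 had 1 gene symbol in the platform annotation, 8730 had none and 0 had several, and 2475 tested probes were unnamed. Each gene was represented by its brightest tested probe. Values on every array are given for the 6 receptor genes with the largest difference in each comparison, and for up to 3 genes by p-value from each list. Other genes with values on every array were chosen after their values were seen. Sequences are RefSeq's. The members and lists were chosen with earlier results of these data known. Alternatives were other scalings, filters and variance models, the replicate number as a block, the arrays named IgG3 averaged or as a random block, and each array left out.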

Additional observations from a re-analysis of the deposited data

How the results depend on the processing

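With 2 TRF2-S arrays, intervals were wide, and dim subunits near background have little range. No receptor gene passed the adjusted threshold in the alternatives run (limma and the methods' ANOVA), apart from *Grin1*, which was called lower (1 gene) against IgG1 and IgG2 after quantile normalization (−0.346, adjusted p 0.0356) and with the replicate number as a block, which in both comparisons holds arrays 1 and 2 only (−0.417, adjusted p 0.0343). Deviations of IgG1 and of TRF2-S array 1 from their group means correlated at 0.278 over the 9187 tested probes. The value for IgG2 and TRF2-S array 2 is the same by construction, and the labels do not pair these arrays. *Grin1* stayed below 0 in all alternatives, from −1.44 to −0.417 against all 5 IgG arrays (adjusted p 0.0343 to 0.894) and from −0.513 to −0.322 against IgG1 and IgG2 (0.0343 to 1.0).

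Counts over all probes moved more, also in the settings that called *Grin1* lower. Against IgG1 and IgG2, 13 higher and 1 lower became 318 and 236 after quantile normalization, 82 and 20 with neqc background correction, 192 and 91 with a trended, robust fit, 34 and 5 with all 7 arrays in the fit, 32 and 4 with no filter, 338 and 310 with the block, and 0 with median centring, no normalization, the ANOVA or without either TRF2-S array. Without IgG1 they were 136 and 162 and without IgG2 41 and 5, the lone array being assumed to vary like the other group. Against all 5 IgG arrays, 3 and 0 became 338 and 310 with the block and at most 10 and 0 otherwise.

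Against all 5 IgG arrays, the GABA median was −0.857 with median centring, −1.14 with no normalization, −0.498 with neqc, −0.0308 with no filter, −0.499 for genes detected on every array and −0.0286 with the block. The glutamate median was −0.701 with no normalization, −0.525 with neqc, −0.182 with the arrays named IgG3 averaged, −0.0273 with no filter and 0.0286 with the block. Over the probes detected on every array the median was −0.152. Median centring and no normalization moved the median of all probes to −0.336 and −0.620. The glutamate class exceeded the GABA class by 0.44 under both. With the main scaling, it exceeded the GABA class by 0.214 as means over genes, where the medians gave −0.0416. Signs turned for *Gabbr1* (−0.0724) and *Gria3* (−0.262) with no normalization, and for *Gabra5* (0.0288), *Grik1* (0.0481), *Grik2* (0.00909) and *Grm2* (0.12) with the block. Against IgG1 and IgG2, the glutamate median was −0.00293 with no filter. Signs turned for *Gria2* (0.0101) and *Grik2* (−0.0301) after quantile normalization, for the same genes with neqc (0.0103 and −0.0703), and for *Gabrb1* (0.00153) with no normalization. The causes were not tested.

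With 1 array left out, the medians against IgG1 and IgG2 ranged from 0.00452 to 0.0683 (glutamate) and from −0.142 to 0.0265 (GABA), and the glutamate class exceeded the GABA class by 0.0346 to 0.147. The sign turned for *Gabrd* (−0.377 to 0.0107) without IgG1, for *Gria2* (−0.151 to 0.107) without IgG1 or TRF2-S array 2, for *Gabra5* (−0.00248 to 0.0601) without IgG2, for *Gabrb1* (−0.0836 to 0.0265) without TRF2-S array 1, and for *Gabbr1* (−0.149 to 0.265), *Grik2* (−0.0432 to 0.0613) and *Grik5* (−0.0128 to 0.291) without TRF2-S array 2. Against all 5 IgG arrays no receptor gene's sign turned with 1 array left out, while glutamate minus GABA ranged from −0.114 to 0.0156.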
